A study of Mus musculus with 8 samples.

Results

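The mRNAs of the cytosolic ribosomal proteins were followed in polyA-RNA sequencing of the whole hippocampus of 8 male mice, of which 4 had received the rAAV hpCTL and 4 the rAAV hp708. Members were the protein-coding genes whose symbol is Rpl or Rps followed by a digit, together with Rplp0, Rplp1, Rplp2 and Rpsa, with the Rps6k kinases left out and at least 100 counts over the 8 libraries. The rule gave 83 of the 40659 gene identifiers in the count table. Of these, 43 encode proteins of the large subunit, 3 the stalk and 31 the small subunit, and 6 are paralogues of these genes or carry the symbol without being ribosomal proteins (Rpl7l1, Rpl22l1, Rpl36al, Rps4l, Rps27l and Rps19bp1). The other 7 symbols stayed under the minimum. Their totals were 73 counts for Rpl35rt, 69 for Rpl3l, 37 for Rps27rt, 12 for Rpl39l, 3 for Rps23rg1 and 0 for both Rpl10l and Rpl27rt, while the lowest member, Rps27l, had 2069. All 83 members passed the filter on low counts and were tested.

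All mice were C57BL/6JRj, received their virus by stereotactic injection into the dorsal and ventral hippocampus at week 7 to 8 and were dissected 4 weeks later, at 12 to 13 weeks by the labels. hp708 carries a hairpin that overexpresses miR-708-5p under the human synapsin promoter, in the 3'UTR of EGFP, so that it is expressed in the neurons the virus reached, and hpCTL carries a control hairpin. The libraries hold RNA of all hippocampal cells, infected or not, and the total count per library was 22606824 to 28462428. The labels conflict for animal 1602 (hp708 replicate 1 by its title), which another table of the study gives as hpCTL, and its title was followed. As a check of the tissue, the mean level of 5 pyramidal neuron markers was 8.59 to 8.84 log2 CPM (counts scaled to a common, normalized library size) over the 8 libraries, and that of 6 interneuron markers 5.99 to 6.37, while 5 choroid plexus markers ranged from 2.14 to 6.89 and 5 subiculum markers from 3.79 to 5.06.

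Each cytosolic ribosome contains a copy of nearly every ribosomal protein, and the genes that encode them lie scattered over the genome, here over 19 chromosomes with at most 14 on a single one, chromosome 7. Their mRNAs are short, abundant and stable, and many begin with a 5' terminal oligopyrimidine (TOP) motif, a C at the first base followed by a run of pyrimidines. Through this motif the mTOR pathway and the RNA-binding protein Larp1 set how many of these mRNAs are translated. In neurons, ribosomal protein mRNAs are found in dendrites and axons as well as in the cell body.

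The motif is shown for the named members whose RefSeq start begins with a C and at least 4 further pyrimidines. Each line gives 10 bases before the start and 20 bases from it, on the coding strand, with the pyrimidine run from the first base in capitals. Positions are those of GRCm39.
Rpl15, chr14:4198700-4198729, plus strand: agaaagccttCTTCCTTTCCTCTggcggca
Rpl35, chr2:38895124-38895153, minus strand: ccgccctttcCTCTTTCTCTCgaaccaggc
Rps6, chr4:86775585-86775614, minus strand: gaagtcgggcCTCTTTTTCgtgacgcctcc
Rps15a, chr7:117715351-117715380, minus strand: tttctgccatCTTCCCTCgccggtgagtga
Rps27, chr3:90120936-90120965, minus strand: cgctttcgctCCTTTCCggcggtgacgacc
Rplp2, chr7:141027554-141027583, plus strand: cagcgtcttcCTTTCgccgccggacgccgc
Rps21, chr2:179899162-179899191, plus strand: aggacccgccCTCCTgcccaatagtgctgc
The run was 13 bases long in Rpl15 and 5 in Rplp2 and Rps21. A RefSeq start was at hand for 62 members, of which 13 (21.0%) began with such a run, against 2.96% of 11502 tested protein-coding genes. At the start of the GENCODE canonical transcript the share was 7 of 83 members (8.43%), against 4.07% of 14977 tested genes. A run of at least 8 pyrimidines within 50 bases on either side of the RefSeq start was present in 51 of the 62 members (82.3%) and in 37.6% of the tested genes. Annotated starts can lie some bases away from the start used in the hippocampus, and the absence of the run at an annotated base says only that these letters are not at that base. The search used the coding strand only.

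The 3'UTRs of the members were searched for the seed match of miR-708-5p, whose mature sequence in RefSeq (GRCm38.p6) is given with its seed, bases 2 to 8, in capitals.
mmu-miR-708-5p: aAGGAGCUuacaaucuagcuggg
The search took AGCTCCT, or the same letters without the first A when an A followed them. Either was found in 8 of 83 members (9.64%), against 21.3% of 14796 tested protein-coding genes. All 8 members held AGCTCCT, and the share of tested genes with AGCTCCT alone was not computed. The median 3'UTR was 226 bases long in the members and 1369 bases in the tested genes, and the part of length in this contrast was not tested. In 2 members, the stalk gene Rplp0 and the small subunit gene Rps24, the match was an 8mer, that is, followed by an A opposite the first base of the microRNA. Capitals mark the 8 bases.
Rplp0, chr5:115701673-115701680, plus strand: aaaattaaAGCTCCTAgtgttttt
Rps24, chr14:24545918-24545925, plus strand: aactaaaaAGCTCCTAcacgtctg
They lie 171 and 54 bases after the stop codon. Rpl28, Rpl30, Rpl34, Rpl7l1 and Rps15a had a 7mer-m8 match. No site was tested for function here.

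The ribosomal protein mRNAs moved together from library to library, with 1 library of each virus at the top and 3 of hp708 at the bottom. Their summed counts made up 1.39%, 1.11%, 1.12% and 1.14% of the library in hpCTL replicates 1 to 4. In hp708 replicates 1 to 4 they made up 1.00%, 1.26%, 0.983% and 1.09%. hpCTL replicate 1 was the highest and hp708 replicate 2 the next, while the other 3 hp708 libraries lay below every hpCTL library, so the groups overlapped through hp708 replicate 2. The mean share was 1.19% ± 0.133 (SD, n = 4) in hpCTL and 1.08% ± 0.127 (SD, n = 4) in hp708, a difference smaller than either SD. In bulk tissue, fewer cells of a type and less RNA per cell cannot be told apart, and a share of the library also depends on the other RNAs in it.

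In hpCTL replicate 1, 83 of the 83 members were above their own mean over the 8 libraries, and in hp708 replicate 2, 82 were. In hp708 replicates 1 and 3 none of them was above it. In hpCTL replicates 2 to 4 the count was 13, 24 and 49, and in hp708 replicate 4 it was 19. Over all tested genes between 47.5% and 53.2% were above their mean in any library. The median member stood 0.32 above its mean (log2) in hpCTL replicate 1 and 0.18 below it in hp708 replicates 1 and 3, a span of 0.50 between libraries. Large and small subunit genes did this alike, with medians of 0.34 and 0.30 in hpCTL replicate 1 and of -0.19 and -0.18 in hp708 replicate 3. As a result 77 members were highest in hpCTL replicate 1, and 81 were lowest in hp708 replicate 1 or 3. For 75 members both of these hp708 libraries were below every hpCTL library, which held for 7.94% of the tested genes, but in 73 members hp708 replicate 2 exceeded every hpCTL library other than replicate 1.

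**Figure D1:**
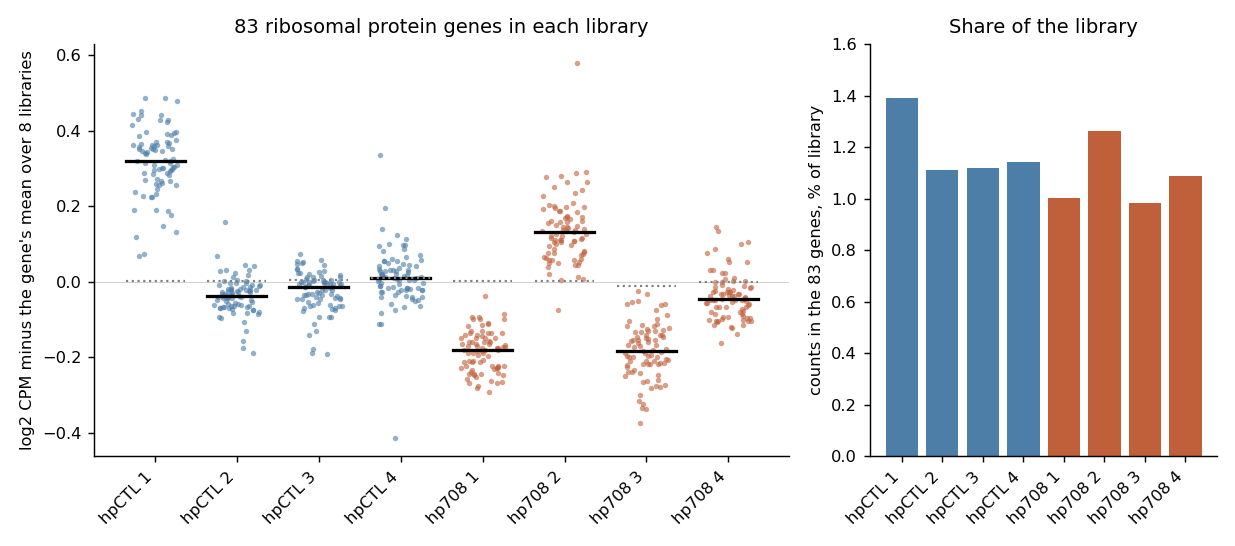
Left, log2 CPM of each of the 83 ribosomal protein genes minus its own mean over the 8 libraries, 1 point per gene, with the median of the members as a solid bar and that of all tested genes as a dotted bar. Right, counts in the 83 genes as a percentage of the library. hpCTL replicate 1 and hp708 replicate 2 stand highest (1.39% and 1.26%), hp708 replicates 1 and 3 lowest (1.00% and 0.983%).

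The comparison of hp708 with hpCTL asks which mRNAs of the hippocampus differ when miR-708-5p is overexpressed. It was made with the quasi-likelihood test of edgeR, fitted with 3 surrogate variables, which are factors estimated from the counts to stand for unknown differences between libraries. In this fit 82 of 83 members were lower in hp708. The median member was at -0.15 on the log2 scale, the lowest at -0.30 (Rpl36al) and the highest, Rps4l, at 0.04. The median over all 17252 tested genes was -0.01, and 53.2% of them were lower. None of the 83 members passed a false discovery rate (FDR) of 0.05, which 0.0058% of the tested genes passed, and the lowest adjusted p of a member was 0.438 in edgeR's quasi-likelihood test. At an unadjusted p below 0.05 there were 48 members, all lower in hp708 and none higher. The background at this threshold was 7.7% of the tested genes in either direction, with 4.87% lower and 2.82% higher. The CPM of hpCTL and hp708 overlapped for each of the 83 members, while 1.51% of the tested genes had groups that did not overlap. Among the 77 standard components every gene was lower, between -0.26 and -0.07.

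The count of 48 changed with the number of surrogate variables, the filter and the libraries kept, and the cause was not tested. Without surrogate variables 1 member was below the threshold (background 1.81%), with 1 surrogate variable 1 member (3.44%) and with 2 surrogate variables 0 members (4.1%), while 82 members were lower in each of these fits and their median was -0.13. The members that were lower in all 4 fits numbered 81, since Rps27l was higher (0.02) and Rps4l lower (-0.03) without surrogate variables. The third surrogate variable was -0.49 in hpCTL replicate 1 and -0.68 in hp708 replicate 2, the 2 libraries in which the members were high, and between 0.04 and 0.36 in the other 6. When the surrogate variables were estimated without the members, 44 of them were below the threshold (7.67%). With 3 surrogate variables and all 8 libraries there were 40 with DESeq2 size factors (7.58%), 34 with the likelihood ratio test (6.01%), 34 with DESeq2 (5.02%), 29 with no filter on low counts (5.87%) and 60 with surrogate variables from TMM-scaled counts (13.3%). Without these 2 libraries and without surrogate variables, 19 members were below the threshold (4.34%), 82 were lower and the median was -0.11. With the surrogate variables kept, leaving out hp708 replicate 1 left 1 member (12.2%), 44 lower ones and a median of -0.00, and leaving out hpCTL replicate 1 left 7 members (9.67%). Without hp708 replicate 3 there were 8 (8.02%), without hpCTL replicate 3 there were 13 (2.98%) and without hpCTL replicate 4 there were 15 (6.09%), with 81 to 83 members lower. The count was 37 without hpCTL replicate 2 (7.04%), 48 without hp708 replicate 2 (12.0%) and 60 without hp708 replicate 4 (8.46%). Each of these had 82 members lower. With at least 10 counts required in every library, 0 members were below the threshold (5.72%), 64 were lower and the median was -0.03. With animal 1602 counted as hpCTL, 6 members were below the threshold (11.9%), 75 were lower and the median was -0.05.

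**Figure D2:**
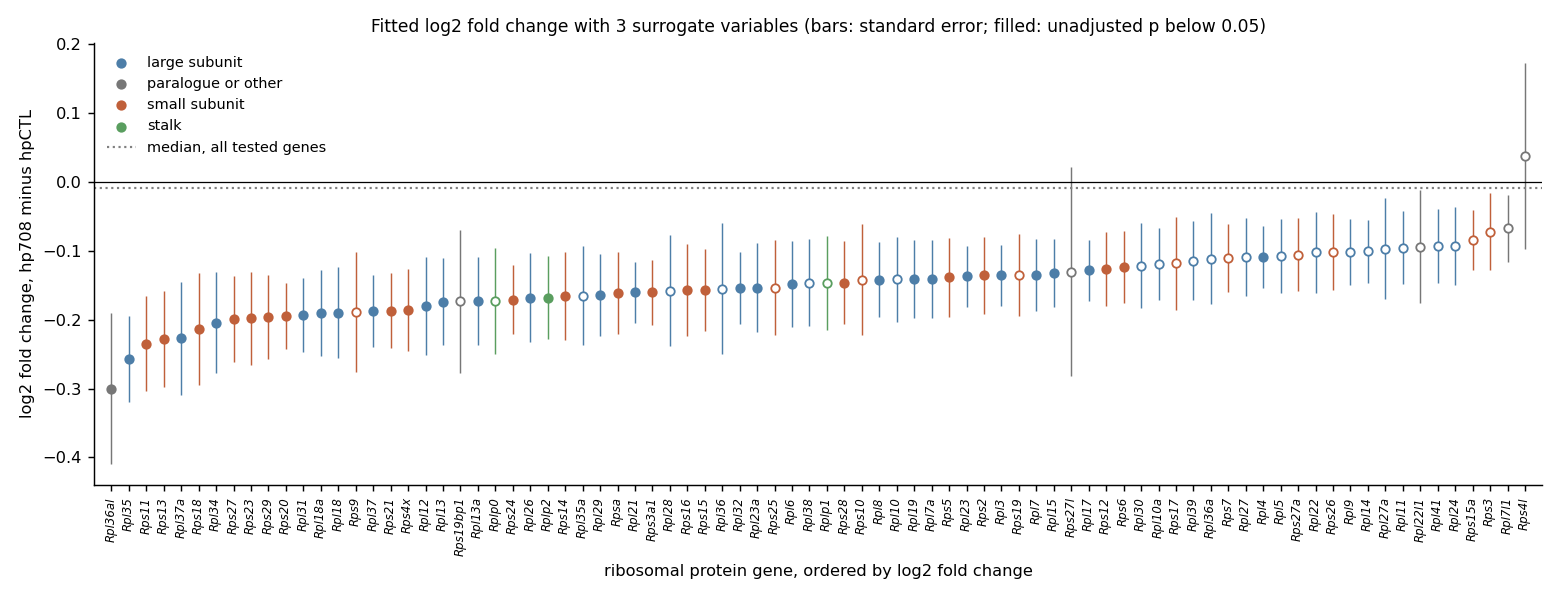
Fitted log2 fold change (hp708 minus hpCTL, 3 surrogate variables) of 82 of the 83 members, ordered by size, with the standard error as a bar and members at an unadjusted p below 0.05 filled. Every gene drawn but Rps4l lies below 0, and the dotted line gives the median of all tested genes, -0.01.

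**Figure D3:**
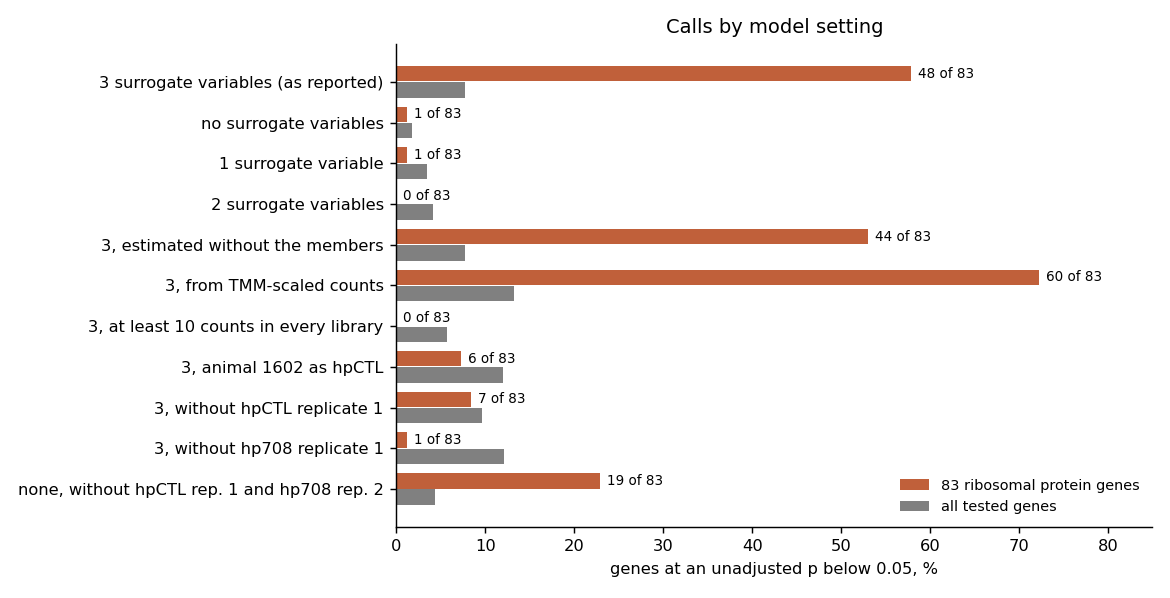
Percentage of the 83 members and of all tested genes at an unadjusted p below 0.05 under 11 settings of the model, with the number of members beside each bar. The count of members ranges from 0 to 60 and drops to 1 or 0 with fewer than 3 surrogate variables when all 8 libraries are kept.

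Of the 46 genes of the large subunit and its stalk, 46 were lower in hp708 and 26 had an unadjusted p below 0.05 (background 7.7%), against 1 without surrogate variables (1.81%). The median log2 fold change of the 46 was -0.14. Among the 6 members with the lowest p were Rpl35, Rpl21, Rpl31 and Rpl37. Rpl35, which sits near the exit of the tunnel through which the new protein leaves, had 40.6, 32.6, 32.1 and 30.3 CPM in hpCTL replicates 1 to 4 and 26.3, 34.6, 25.5 and 29.0 CPM in hp708 replicates 1 to 4. In hp708, 3 libraries lay below all of hpCTL and hp708 replicate 2 lay above replicates 2 to 4 of hpCTL. The log2 fold change of Rpl35 was -0.26 (standard error 0.06, adjusted p = 0.438 in edgeR's quasi-likelihood test). Rpl21 had 343, 273, 273 and 262 CPM in hpCTL and 245, 292, 240 and 250 CPM in hp708, with a log2 fold change of -0.16 (standard error 0.04). Rpl31, another protein at the tunnel exit, had 120, 95.4, 94.6 and 105 CPM in hpCTL and 89.0, 98.6, 84.6 and 85.8 CPM in hp708. Its log2 fold change was -0.19 (standard error 0.05), and it was the only member still below the threshold without surrogate variables. Rpl37 had 176, 129, 131 and 129 CPM in hpCTL and 117, 136, 114 and 121 CPM in hp708. In each of these 4 genes the overlap of the groups came from hp708 replicate 2. Leaving out hp708 replicate 1 moved the log2 fold change to -0.10 for Rpl35, -0.06 for Rpl21, -0.13 for Rpl31 and -0.07 for Rpl37. With at least 10 counts in every library these values were -0.13, -0.08, -0.13 and -0.09.

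The genes with the smallest and largest spread within groups were also of this subunit in part. Rpl15 had an SD of 0.09 log2 units within groups, with 116, 99.3, 99.2 and 101 CPM in hpCTL and 87.7, 99.4, 97.4 and 94.6 CPM in hp708. Rpl36 had an SD of 0.25, with 67.5, 53.4, 46.2 and 52.7 CPM in hpCTL and 44.8, 62.8, 41.5 and 54.2 CPM in hp708. The median SD within groups was 0.17 for the members and 0.18 for all tested genes, whatever their level. Genes of a level like that of the members were not compared. Rpl4 and Rpl8, which reach to the tunnel and the peptidyl transferase center, were among the most abundant large subunit mRNAs. Rpl4 had 533, 442, 453 and 456 CPM in hpCTL and 405, 485, 427 and 442 CPM in hp708, with a log2 fold change of -0.11 (standard error 0.05). Rpl8 had 319, 237, 242 and 237 CPM in hpCTL and 221, 252, 217 and 235 CPM in hp708, with a log2 fold change of -0.14 (standard error 0.05). These became 0.0068 for Rpl4 and -0.03 for Rpl8 without hp708 replicate 1, and -0.03 and -0.05 with at least 10 counts in every library.

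The stalk is the flexible arm of the large subunit that recruits the elongation factors. Its base is Rplp0, and Rplp1 and Rplp2 form the dimers at its tip. Rplp0 had 196, 167, 179 and 173 CPM in hpCTL and 143, 196, 142 and 189 CPM in hp708. Rplp1 had 446, 336, 323 and 347 CPM in hpCTL and 295, 395, 296 and 345 CPM in hp708. Rplp2 had 163, 126, 123 and 124 CPM in hpCTL and 107, 156, 105 and 126 CPM in hp708. All 3 were lowest in hp708 replicates 1 and 3, and hp708 replicates 2 and 4 lay within or above the range of hpCTL replicates 2 to 4. Their log2 fold changes were -0.17, -0.15 and -0.17 in this order, and 1 of the 3, Rplp2, had an unadjusted p below 0.05 (adjusted p = 0.594 in edgeR's quasi-likelihood test), which 7.7% of the tested genes had. None of the 3 had it without surrogate variables (1.81%). The direction rested on the setting: with at least 10 counts in every library the values were 0.01, 0.01 and 0.01, and without hp708 replicate 1 they were 0.06, 0.05 and 0.06.

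Of the 31 small subunit genes, 31 were lower in hp708 and 21 had an unadjusted p below 0.05 (background 7.7%), against 0 without surrogate variables (1.81%). The median log2 fold change of the 31 was -0.16. Rps20, a protein of the head of the subunit, had the lowest p of all members. It had 112, 92.5, 94.9 and 94.4 CPM in hpCTL and 77.2, 113, 80.3 and 89.2 CPM in hp708. Here hp708 replicate 2 was the highest of the 8 libraries and the other 3 hp708 libraries the lowest. It differed by -0.19 on the log2 scale (standard error 0.05, adjusted p = 0.438 in edgeR's quasi-likelihood test), and by -0.13 without surrogate variables (adjusted p = 0.999). Rps21 had 173, 121, 117 and 121 CPM in hpCTL and 106, 140, 105 and 113 CPM in hp708, with a log2 fold change of -0.19 (standard error 0.05). Rps29, a small zinc-binding protein, had 267, 216, 204 and 222 CPM in hpCTL and 183, 246, 178 and 206 CPM in hp708, and Rpsa, also known as the laminin receptor, had 357, 263, 265 and 254 CPM in hpCTL and 235, 281, 232 and 261 CPM in hp708. The log2 fold changes of these were -0.20 and -0.16. When hp708 replicate 1 was left out, Rps20 turned to 0.0092 and Rps21, Rps29 and Rpsa were at -0.02, -0.02 and -0.02. With at least 10 counts in every library the 4 genes were at -0.04, -0.05, -0.06 and -0.05.

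Rps6 is the substrate of the S6 kinases, whose phosphorylation is used as a readout of mTOR activity. It had 135, 103, 108 and 108 CPM in hpCTL and 93.1, 121, 102 and 105 CPM in hp708, with a log2 fold change of -0.12 (standard error 0.05). Rps27a is made as a fusion with ubiquitin, and had 181, 134, 133 and 139 CPM in hpCTL and 130, 151, 125 and 130 CPM in hp708. Rps15a had the smallest spread of the members, 0.06 log2 units within groups, with 153, 140, 143 and 142 CPM in hpCTL and 130, 146, 135 and 138 CPM in hp708. In these 3 genes hpCTL replicate 1 was the highest library, hp708 replicate 2 the next and hp708 replicate 1 or 3 the lowest. The log2 fold change was -0.11 for Rps27a and -0.08 for Rps15a, and leaving out hp708 replicate 1 gave 0.04 for Rps6, -0.01 for Rps27a and -0.01 for Rps15a. Rps28, a protein at the exit of the mRNA channel, had 46.3, 35.6, 36.3 and 38.7 CPM in hpCTL and 32.3, 43.8, 33.6 and 34.7 CPM in hp708.

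Rack1 and Fau, standard ribosomal components without an Rpl or Rps symbol, were highest and lowest in the same libraries as most members. Rack1, a scaffold of signalling proteins on the small subunit, had 226, 190, 194 and 199 CPM in hpCTL and 169, 203, 164 and 193 CPM in hp708. Fau, made as a fusion with a ubiquitin-like protein, had 129, 99.8, 102 and 101 CPM in hpCTL and 86.9, 121, 90.2 and 102 CPM in hp708. In both, hpCTL replicate 1 was the highest library, hp708 replicate 2 the next, and hp708 replicates 1 and 3 the 2 lowest, while the order of the others differed. Their log2 fold changes were -0.18 and -0.15, and both had an unadjusted p below 0.05 (background 7.7%), which neither had without surrogate variables (1.81%). Without hp708 replicate 1 they were -0.03 and 0.05, and with at least 10 counts in every library -0.06 and 0.0013.

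The 4 members on the X chromosome shared their highest and lowest libraries with the others. Rps4x had 317, 244, 271 and 262 CPM in hpCTL and 225, 279, 223 and 249 CPM in hp708, and Rpl10, which joins the large subunit late in its assembly, had 203, 162, 170 and 173 CPM in hpCTL and 150, 190, 146 and 170 CPM in hp708. Rpl36a had 79.0, 57.9, 60.9 and 63.5 CPM in hpCTL and 52.6, 76.9, 56.9 and 63.4 CPM in hp708. Rpl39, a small protein of the tunnel wall, had 52.9, 47.1, 45.9 and 44.7 CPM in hpCTL and 39.98, 51.1, 41.7 and 48.9 CPM in hp708. The log2 fold changes of these were -0.19, -0.14, -0.11 and -0.11, and Rps4x was the member of this group with an unadjusted p below 0.05 (background 7.7%). Leaving out hp708 replicate 1 gave -0.03, 0.02, 0.13 and 0.05, so that 3 of the 4 turned, and at least 10 counts in every library gave -0.05, -0.0033, 0.07 and -0.0009.

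Among the 6 paralogues and related genes the order of the libraries differed from gene to gene. Rpl36al, the paralogue of Rpl36a, had 19.2, 13.5, 14.7 and 15.6 CPM in hpCTL and 11.8, 15.0, 11.4 and 13.6 CPM in hp708, with a log2 fold change of -0.30 (standard error 0.11, adjusted p = 0.598 in edgeR's quasi-likelihood test). Per kilobase it reached 14.4%, 13.8%, 14.3% and 14.5% of the level of Rpl36a in hpCTL and 13.3%, 11.5%, 11.8% and 12.7% in hp708. This was the single ratio whose groups did not overlap among 6 pairs, 5 of a paralogue and its parent gene and 1 of Rps19bp1 and Rps19. It was picked out with its values known and was not tested, and the share over ratios of other gene pairs was not computed. Rpl22l1, the paralogue of Rpl22, had 51.6, 36.6, 39.1 and 43.6 CPM in hpCTL and 37.2, 41.4, 38.8 and 39.9 CPM in hp708. It reached 78.1% ± 5.93 (SD, n = 4) of Rpl22 per kilobase of exon in hpCTL and 76.9% ± 4.18 in hp708. Rpl22 itself had 117, 96.1, 104 and 107 CPM in hpCTL and 91.8, 113, 99.1 and 95.7 CPM in hp708. Counted per kilobase of coding sequence the ratio was 42.1%, so its size depends on the length that is used.

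Rps27l, a paralogue of Rps27 and a target of p53, had the largest spread within groups, 0.35 log2 units. It had 10.6, 8.88, 8.86 and 12.8 CPM in hpCTL and 8.26, 15.1, 8.01 and 10.3 CPM in hp708. Rps4l, the paralogue of Rps4x, had 27.95, 22.9, 18.01 and 15.4 CPM in hpCTL and 20.01, 19.5, 20.1 and 22.7 CPM in hp708. Unlike 81 of the members, which were lowest in hp708 replicate 1 or 3, it was lowest in hpCTL replicate 4, and its log2 fold change was 0.04 (standard error 0.14). Rpl7l1, the paralogue of Rpl7, had 44.5, 42.1, 42.7 and 42.9 CPM in hpCTL and 39.7, 46.5, 40.7 and 40.0 CPM in hp708, with an SD within groups of 0.08. Rpl7 had 263, 206, 213 and 216 CPM in hpCTL and 193, 237, 188 and 206 CPM in hp708. Rps19bp1 encodes a protein that binds Rps19 and is no part of the ribosome. It had 17.6, 12.8, 11.4 and 12.4 CPM in hpCTL and 10.3, 13.2, 12.1 and 11.7 CPM in hp708, with a log2 fold change of -0.17 (standard error 0.10), while Rps19, which is needed to mature the small subunit, had a mean of 101 ± 12.0 CPM (SD, n = 4) in hpCTL and 92.5 ± 10.7 CPM in hp708. Of the 6 genes, 5 were lower in hp708 (53.2% of the tested genes) and 1, Rpl36al, had an unadjusted p below 0.05 (7.7%), against 0 without surrogate variables (1.81%). The values of Rpl36al and Rps19bp1 were -0.10 and -0.02 without hp708 replicate 1, and -0.12 and -0.09 with at least 10 counts in every library.

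The members with a seed match of miR-708-5p lay within the range of those without one. Rps24, named for the site shown above, had 277, 214, 225 and 226 CPM in hpCTL and 188, 251, 202 and 211 CPM in hp708, with a log2 fold change of -0.17 (standard error 0.05), which was -0.0006 without hp708 replicate 1 and -0.04 with at least 10 counts in every library. The 8 genes with a match had a median log2 fold change of -0.14 and 3 of them an unadjusted p below 0.05, which 7.7% of the tested genes had. The 75 without one had a median of -0.15 and 45 of them an unadjusted p below 0.05. The difference between these medians was not tested. By the TOP start the medians were -0.16 for the 13 members that begin with it at the RefSeq start and -0.14 for the 49 that do not, with 7 and 26 genes at an unadjusted p below 0.05. Without surrogate variables 0 of the 8 and 1 of the 75, and 0 of the 13 and 1 of the 49, were below this threshold, against 1.81% of the tested genes.

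Related gene lists were read from the same fit, in which 7.7% of the tested genes had an unadjusted p below 0.05. All 17 elongation factors, initiation factors and other mRNAs known to carry a TOP motif, of which 1 had a TOP start by GENCODE and 2 of 11 at a RefSeq start, were lower in hp708, 7 of them (41.2%) at an unadjusted p below 0.05, with a median of -0.10. The gene with the lowest p was Eif3f, a subunit of the initiation factor eIF3, at -0.16 (standard error 0.04, adjusted p = 0.50 in edgeR's quasi-likelihood test). Of 78 mitochondrial ribosomal proteins, of which 3 had a TOP start by GENCODE and 0 of 69 at a RefSeq start, 64 were lower and 7 (8.97%, near the background) below the threshold, with a median of -0.08 and Mrpl9 at the lowest p (-0.16). Of 91 nuclear genes of oxidative phosphorylation 86 were lower and 13 (14.3%) below the threshold, with a median of -0.09 and Cox5b at the lowest p (-0.15). Of 6 snoRNA host genes 5 were lower and 0 below the threshold, Gas5 having the lowest p (-0.09). Of 55 genes of ribosome assembly and RNA polymerase I 36 were lower and 0 below the threshold, with a median of -0.02 and the polymerase subunit Polr1a at the lowest p (0.12). Of 17 genes of mTOR signalling and TOP regulation 9 were lower and 0 below the threshold, with a median of -0.01 and Tsc2, an inhibitor of mTOR, at the lowest p (0.09). Without surrogate variables, where the background was 1.81%, the genes below the threshold were 0 translation factors, 2 mitochondrial ribosomal proteins and 0 of oxidative phosphorylation, with medians of -0.09, -0.11 and -0.13.

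The same lists were compared from library to library. In hpCTL replicate 1 the median deviation from the gene's mean was 0.23 for the translation factors, 0.30 for the mitochondrial ribosomal proteins and 0.39 for oxidative phosphorylation, against 0.14 for ribosome assembly. In hp708 replicate 2 it was 0.04, 0.03 and 0.05 for the first 3 of these, against 0.13 for the ribosomal protein genes. The snoRNA host genes stood at 0.31 in hpCTL replicate 1 and 0.13 in hp708 replicate 2, near the members in both. In hp708 replicates 1, 3 and 4 they stood at -0.15, -0.03 and -0.11, against -0.18, -0.18 and -0.04 for the members. The 9 nuclear long noncoding RNAs, among them Malat1, were at 7.86, 8.21, 8.17 and 8.13 log2 CPM in hpCTL and 8.25, 8.00, 8.22 and 8.00 log2 CPM in hp708, lowest in hpCTL replicate 1. Tested genes with exons of over 8 kb in all had a median deviation of -0.09 in hpCTL replicate 1 and -0.05 in hp708 replicate 2. The 727 tested genes of under 1 kb other than the members had a median log2 fold change of -0.05, with 58.5% of them lower in hp708, and the 5168 genes of over 8 kb one of 0.02, with 38.9% lower. A set of 6 interferon response genes stood at 3.64, 4.80, 4.87 and 5.02 log2 CPM in hpCTL. In hp708 it stood at 4.96 and 4.84 in replicates 2 and 4 and at 3.80 or less in replicates 1 and 3, so that it was low in the highest library of the members and in their 2 lowest. The 5 oligodendrocyte markers were highest in hp708 replicate 2 (9.61, against 8.70 to 9.20 in the other libraries), and the 5 choroid plexus markers were highest there too (6.89) and lowest in hpCTL replicate 1 (2.14). The part of these differences in the levels of the ribosomal protein genes was not tested.

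**Figure D4:**
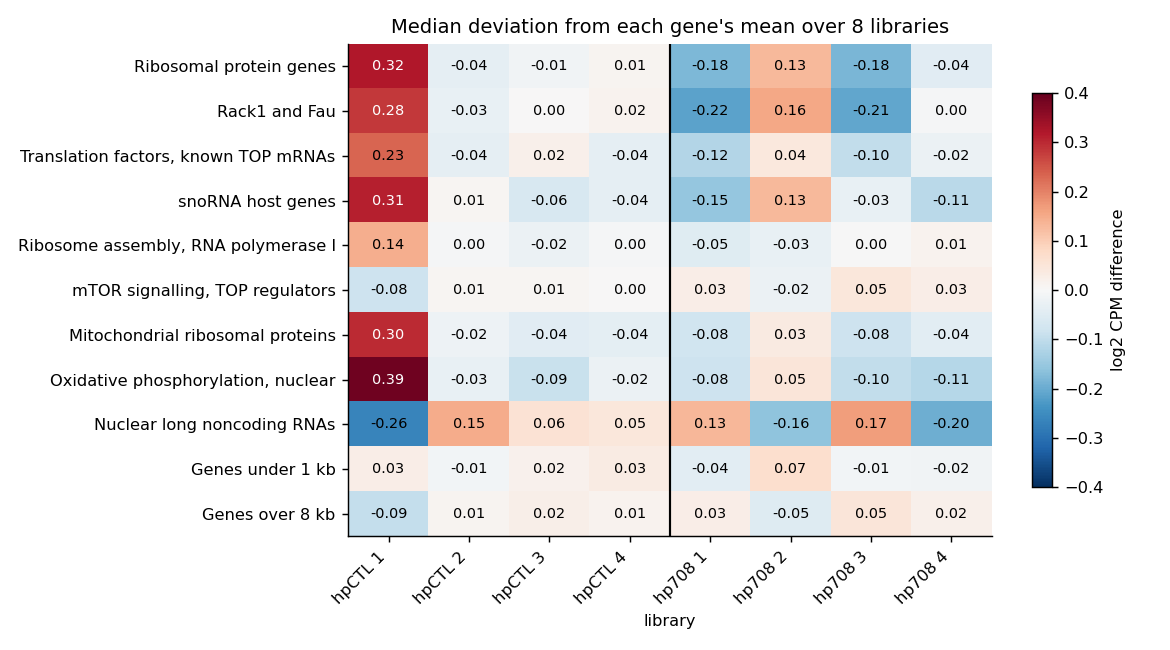
Median deviation of each gene list from its genes' own means over the 8 libraries (log2 CPM), with red above and blue below the mean and the value in each cell. The row of the ribosomal protein genes runs from 0.32 in hpCTL replicate 1 to -0.18 in hp708 replicates 1 and 3, and that of Rack1 and Fau follows it.

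Levels were compared between genes per kilobase, as CPM per kilobase of the union of exons in GENCODE M39, averaged over the 8 libraries. Rplp1 was the highest with 593 ± 86.4 (SD, n = 8), followed by Rps29 with 273 ± 38.1, Rpl8 with 169 ± 21.9 and Rpl4 with 156 ± 13.3. Rplp1 lay between 503 and 759 in every library and Rps29 between 225 and 338, so these did not overlap, whereas Rpl8 (149 to 220) and Rpl4 (139 to 183) did. The median was 44.4 for the 77 standard components, 36.2 for the large and 53.9 for the small subunit. These medians were 84.0, 78.1 and 118 per kilobase of the longest coding transcript and 266, 262 and 282 per kilobase of coding sequence. At the low end with the union of exons were Rpl36al (4.78 ± 0.823), Rps28 (6.26 ± 0.827), Rps27l (6.38 ± 1.53) and Rps19bp1 (10.1 ± 1.73). The value of Rps28 rests on an annotation with 6.02 kb of exons for a coding sequence of 0.207 kb. Per kilobase of the coding sequence Rps28 reached 182 and Rpl36al 45.1, and the ratio of the highest to the lowest standard component over the 3 definitions of length was 94.7 with the union of exons. It was 36.8 with the longest coding transcript and 12.0 with the coding sequence. Rplp1, Rps29, Rpl13a and Rps21 were among the 10 highest members under each of the 3 definitions, and Rpl29, Rpl35, Rpl36al, Rpl7l1, Rps19bp1, Rps27l and Rps4l among the 10 lowest.

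**Figure D5:**
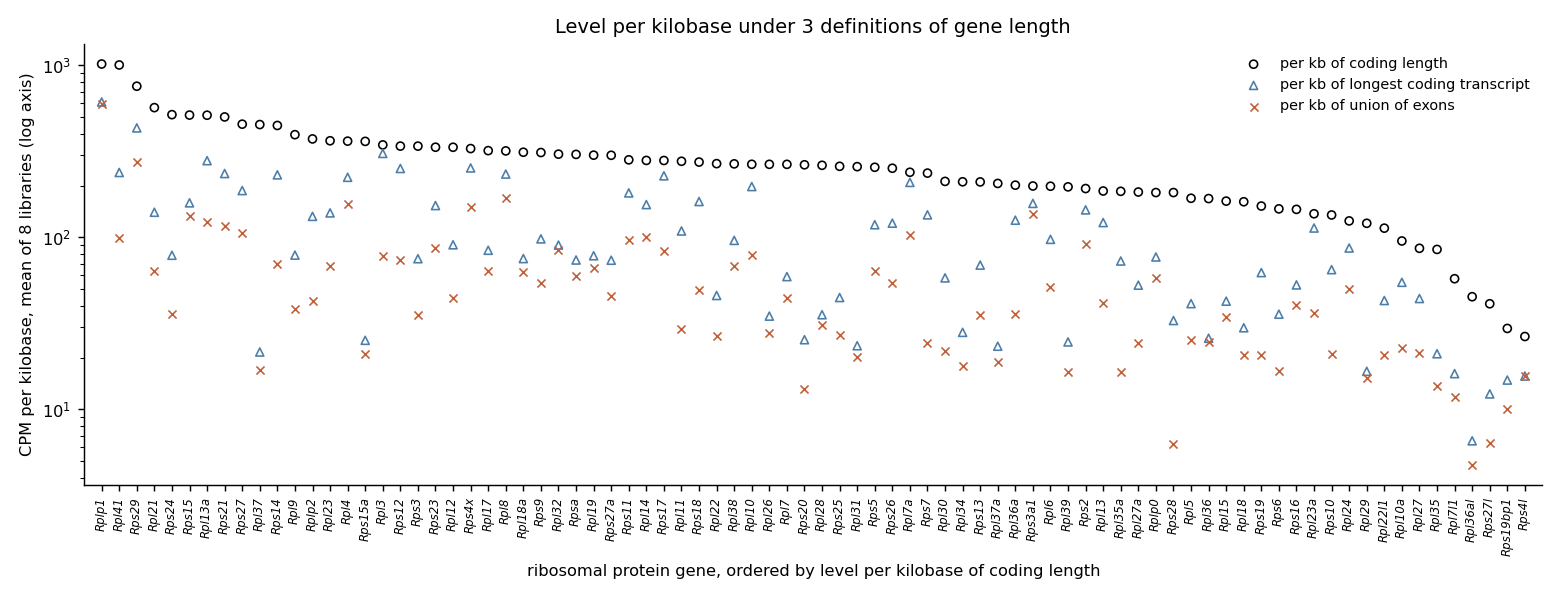
Mean CPM per kilobase of 82 of the 83 members over 8 libraries on a log axis, with 3 definitions of gene length, ordered by the level per kilobase of coding sequence. Rplp1 is highest under each of them (593, 611 and 1017), and the order of most other genes changes with the definition.

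The levels carry a further uncertainty, because ribosomal protein genes have many processed copies in the genome. Of the 83 members 71 had at least 1 further place in GRCm39 that matched at least 90% of their coding sequence at 95% identity or more. The median was 4 places per member, and Rpl21 had 55. How reads with several matching places were counted is not given in the sources used here, so reads of these genes may be lost or shared. The 12 members without such a copy, Rps29 among them, had a median log2 fold change of -0.13, with 11 lower in hp708 and 5 at an unadjusted p below 0.05, while 53.2% of the tested genes were lower and 7.7% below this threshold. For the 71 with a copy these were -0.15, 71 and 43. Without surrogate variables 0 of the 12 and 1 of the 71 were below this threshold, against 1.81% of the tested genes.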

How the data were processed

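PolyA-RNA libraries of the whole hippocampus from 4 hpCTL and 4 hp708 mice were analysed as deposited. The authors mapped reads to GRCm39 with STAR 2.7.8a on GENCODE M26, counted them per gene with featureCounts 1.6.4 and deposited raw counts of 40659 identifiers without normalization. Of these, 39641 were named from GENCODE M39 and 1018 were not. Strand and multi-mapping settings are not given in the sources used here. Replicates are separate animals.

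From the counts, genes were kept by filterByExpr and tested with edgeR 4.0.16 (quasi-likelihood, edgeR 3 style dispersions, TMM, 3 surrogate variables from svaseq, sva 3.50.0, R 4.3.3), with Benjamini-Hochberg adjustment over 17252 genes. The legend of the study names this test and its methods the likelihood ratio test, an alternative here. Standard errors come from the fold change and the test statistic. Log2 CPM used a prior count of 2. DESeq2 1.42.0 was a further alternative. Promoter windows (RefSeq, GRCm38.p6) were placed on GRCm39 by exact match, and copies found with blastn 2.17.0+. Scripts were tested on simulated data.

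Members, lists and the naming rule were chosen with earlier results of these data known. Named were the 6 members with the lowest p, the 4 highest and 4 lowest per kilobase, paralogues and their parents, stalk, X-linked, most and least variable members, Rpsa, Rps6, Rps27a, Rack1 and Fau, and the gene with the lowest p in each related list. Some genes are counted among the members or lists but are not reported here. Genes named for a sequence or a copy, such as Rps24, were added after their values were seen. Microglia, astrocyte, endothelium, ependyma, blood and lymphocyte marker lists were computed and are given with the other observations.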

Additional observations from a re-analysis of the deposited data

Results flagged for a closer look

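Each value below stood far from the other 3 of its group by Dixon's criterion at the 95% level, which chance meets in about 1 of 20 groups. It was met in 15 of the 72 groups looked at, where chance gives about 3.6, and these groups are not independent, since the genes share libraries. In hpCTL replicate 1 the share of the library in ribosomal protein genes was 1.39%, against 1.11% to 1.14% in the other 3. The same library stood apart for 13 genes. Its CPM was 319 for Rpl8, 533 for Rpl4, 343 for Rpl21, 176 for Rpl37 and 116 for Rpl15 in the large subunit and 163 for Rplp2 in the stalk. In the small subunit it was 357 for Rpsa, 181 for Rps27a, 153 for Rps15a, 112 for Rps20, 135 for Rps6 and 173 for Rps21, and it was 129 for Fau. The other hpCTL libraries lay, for example, at 237 to 242 for Rpl8 and at 92.5 to 94.9 for Rps20. In hp708 only Rpl7l1 met the criterion, with 46.5 CPM in replicate 2 against 39.7 to 40.7. Over the 166 groups of all 83 members it was met 38 times, 33 times by hpCTL replicate 1 and 5 times by hp708 replicate 2. What set these libraries apart was not tested.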

How the results depend on the processing

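Members at an unadjusted p below 0.05, of 83, numbered 1 without surrogate variables (background 1.81%), 1 with 1 (3.44%) and 0 with 2 of them (4.1%). There were 29 with no filter on low counts (5.87%) and 0 when each library had to hold at least 10 counts (5.72%). With animal 1602 as hpCTL there were 6 (11.9%), 75 were lower and the median was -0.05. Without hpCTL replicate 1, hp708 replicate 2 and surrogate variables there were 19 (4.34%), a choice made after seeing the data. Leaving the members out of the surrogate variables or of TMM, or DESeq2 size factors, gave 40 to 48 (7.58% to 7.7%). The likelihood ratio test gave 34 (6.01%) and DESeq2 34 (5.02%). Surrogate variables from TMM-scaled counts, added after seeing the data, gave 60 (13.3%). With a replicate block and no surrogate variables there were 0 (1.58%), with 83 lower and a median of -0.13. The deviations of same-numbered libraries correlated between -0.04 and 0.02, so the numbers did not pair the mice. Leaving out 1 library with 3 surrogate variables gave 1 to 60 members (2.98% to 12.2%), 44 to 83 lower and a median of -0.20 to -0.0006. With no surrogate variables it gave 0 to 18 members (1.37% to 3.42%), 72 to 83 lower and a median of -0.21 to -0.04. At an FDR below 0.05 the count was 0 in every one of these fits. The cause of these changes was not tested.

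Of 490 log2 fold changes of 35 named genes with all 8 or 6 libraries, 476 kept their sign, and none of the genes passed an FDR of 0.05. Without surrogate variables the sign turned for Rps4l (-0.035) and Rps27l (0.019), and with the replicate block for Rps4l (-0.0026). With at least 10 counts in every library it turned for Rplp1 (0.0055), Rplp2 (0.0081), Rplp0 (0.013), Rpl36a (0.069), Rpl22l1 (0.0089), Rpl36 (0.019), Rps27l (0.15) and Fau (0.0013), and with animal 1602 as hpCTL for Rpl36a (0.055), Rpl39 (0.013) and Rps27l (0.14). With 1 library left out, with 3 or with no surrogate variables, 34 of 560 values turned. Of these, 15 came without hp708 replicate 1 and with 3 surrogate variables. The ranges were -0.22 to 0.051 for Fau, -0.20 to 0.022 for Rpl10, -0.17 to 0.0072 for Rpl22, -0.19 to 0.024 for Rpl22l1, -0.23 to 0.065 for Rpl36, -0.20 to 0.13 for Rpl36a, -0.15 to 0.052 for Rpl39, -0.15 to 0.0068 for Rpl4, -0.23 to 0.060 for Rplp0, -0.22 to 0.048 for Rplp1, -0.25 to 0.056 for Rplp2, -0.26 to 0.0092 for Rps20, -0.23 to 0.20 for Rps27l, -0.23 to 0.019 for Rps28, -0.16 to 0.14 for Rps4l and -0.19 to 0.041 for Rps6. The mean shares of the library moved by less than their SD with either other denominator.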

Other observations

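Marker lists were taken from the same fit, as counts and medians. Over all tested genes 53.2% were lower in hp708 and 7.7% had an unadjusted p below 0.05, against 1.81% without surrogate variables. All 6 interferon response genes were lower in hp708, 6 of them at an unadjusted p below 0.05, with a median of -0.71, and 4 of the 5 subiculum markers, 3 of them below that threshold, with a median of -0.73. Without surrogate variables these medians were -0.24 and -0.70, with 0 and 1 below the threshold. The medians of the pyramidal neuron, interneuron, oligodendrocyte and choroid plexus markers were 0.11, -0.07, 0.05 and 0.33, with 1, 2, 0 and 0 below the threshold. Without surrogate variables they were 0.11, -0.12, 0.19 and 0.78, with 0, 1, 0 and 0 below it. All 5 microglia markers were lower in hp708, 3 of them at an unadjusted p below 0.05, with a median of -0.23, and all 5 lymphocyte markers, again 3 below that threshold, with a median of -0.70. Without surrogate variables these medians were -0.07 and -0.23 and 0 markers of either list were below the threshold. Of the 5 astrocyte markers 2 were lower (median 0.02) and of the 5 endothelial markers 3 (median -0.04), none of either below the threshold. All 5 ependyma markers were higher (median 0.29) and all 5 red blood cell markers lower (median -0.33), with 0 below the threshold, and without surrogate variables these medians were 0.40 and -0.35, with 0 and 1 below it. Of the 9 tested genes encoded in mitochondria 3 were lower, with a median of 0.01 and mt-Nd5 the single one below the threshold. In none of these lists did a gene reach an FDR of 0.05.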
